A study of Mus musculus with 20 samples.

Results

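The genes described here encode subunits of voltage-gated sodium channels and were named by symbol: the auxiliary beta subunits Scn4b, Scn2b and Scn3b and the pore-forming or pore-like alpha subunits Scn4a, Scn10a and Scn7a. Every probe annotated to 1 of these 6 symbols was taken, which gave 12 of the 45281 probes on the array and covered 5 of the 6 genes. No probe was listed under Scn4a, which was not analysed here. Scn4b was selected on its measured levels, since it was known to differ between DKO and CTL on these arrays, and the other members were added as its relatives. The DKO to CTL differences of all members are therefore given as a description with no test. The comparisons of TAC with sham, and the interaction of genotype and surgery, were not used in the choice and were tested.

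The arrays measured total RNA of left ventricular tissue of male mice on Illumina bead chips, 1 array per mouse. All mice carried floxed alleles of the de novo DNA methyltransferase genes Dnmt3a and Dnmt3b on both copies. DKO mice also carried Cre recombinase under the promoter of the atrial myosin light chain MLC2a, and CTL mice lacked Cre. Cre removes the exons of the catalytic site in cardiomyocytes only. The authors measured incomplete recombination of both genes in sorted cardiomyocyte nuclei. In sorted cardiomyocytes they found Dnmt3a mRNA nearly absent at the deleted exon, and Dnmt3b mRNA too low to detect a further reduction. Mice were operated at 10 to 12 weeks of age and tissue was taken 4 weeks later, at 14 to 16 weeks. There were 4 sham-operated DKO mice (Sham DKO), 4 sham-operated CTL mice (Sham CTL), 6 DKO mice after transverse aortic constriction (TAC DKO) and 6 CTL mice after the same operation (TAC CTL). Transverse aortic constriction narrows the aortic arch and loads the left ventricle with pressure. Other cells of the ventricle keep both enzymes in DKO mice, and the RNA is of the whole tissue, so that fewer cells of a type and less RNA per cell cannot be told apart.

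A voltage-gated sodium channel consists of 1 large alpha subunit, which forms the pore, and smaller beta subunits, which span the membrane once and carry an immunoglobulin-like domain outside the cell. The channel carries the inward current of the upstroke of the action potential in cardiomyocytes. Beta subunits change the gating of the channel and its place in the membrane, and also act in cell adhesion. The beta-4 subunit encoded by Scn4b is linked to the alpha subunit by a disulfide bond, as is beta-2, and its tail inside the cell can block the open pore in cerebellar neurons. Mutations of human SCN4B have been described in a form of long QT syndrome.

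Scn4b and Scn2b are next to each other on mouse chromosome 9. Their promoters are printed because the enzymes deleted in DKO mice methylate cytosine, mainly in the dinucleotide CG. A genotype difference was seen on the brighter probe of Scn4b and not on its dimmer probe. Scn2b was close to background, so a difference there could have been missed. DNA methylation was not analysed here, and whether CG content bears on the levels was not tested. Each sequence is from RefSeq, build GRCm38.p6, and runs from 250 bases before to 50 bases after the start of the gene, with every CG in capitals. Scn4b is at chr9:45138374-45138673 on the plus strand and Scn2b at chr9:45117626-45117925 on the plus strand.
Scn4b: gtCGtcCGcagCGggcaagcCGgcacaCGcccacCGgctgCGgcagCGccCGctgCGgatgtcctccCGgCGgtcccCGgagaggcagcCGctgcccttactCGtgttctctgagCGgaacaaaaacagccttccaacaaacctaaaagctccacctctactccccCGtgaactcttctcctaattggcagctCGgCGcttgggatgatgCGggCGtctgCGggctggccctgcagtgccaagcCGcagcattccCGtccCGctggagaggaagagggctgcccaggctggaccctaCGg
Scn2b: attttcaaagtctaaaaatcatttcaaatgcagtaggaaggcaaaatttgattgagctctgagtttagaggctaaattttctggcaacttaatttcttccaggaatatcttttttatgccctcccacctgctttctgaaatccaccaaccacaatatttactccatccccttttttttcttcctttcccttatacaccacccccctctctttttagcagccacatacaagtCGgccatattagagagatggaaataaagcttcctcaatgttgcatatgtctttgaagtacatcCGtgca
The Scn4b promoter held 26 CG and 66.3% G or C, and the Scn2b promoter held 2 CG and 38.3% G or C. CG reads the same on both strands. Among 32851 promoters of the same 300 bases the median was 7 CG, 16.9% held at least as many CG as Scn4b, and 23.3% held as few as Scn2b or fewer. The promoters of Scn10a, Scn4a and Scn7a held 11, 4 and 3 CG.

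The level of a probe is its normalized linear intensity, and it is not set against the level of another probe. The background limit was 58.1, the level below which 95% of 1504 probes for olfactory and vomeronasal receptor genes lay, and 21266 probes (47%) were above it in at least 1 group. A probe was called at an adjusted p under 0.05 with a fold over 1.5. All 7 cardiomyocyte markers with a probe were above the limit in all groups. All 3 Dnmt3a probes were near background, and the 1 Dnmt3b probe above it averaged 101 in Sham DKO and 112 in Sham CTL, and 110 in TAC DKO and 105 in TAC CTL. The positions of these probes relative to the deleted exons were not used here, so they check no label. Skeletal muscle markers stood apart on Sham CTL replicate 2, with a summed level of 6225, and Sham CTL replicate 4 had the lowest array weight, 0.41, whereas the others had 0.72 or more. The deposited sham and TAC arrays had been normalized as 2 separate sets, so that surgery and set cannot be told apart in any comparison of TAC with sham.

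Of the 12 probes of the sodium channel subunits, 5 were above the background limit in at least 1 group and 3 in all groups. These were both probes of Scn4b, 1 of 3 of Scn2b, 1 of 2 of Scn10a and the 1 of Scn7a, while 0 of 4 probes of Scn3b were. The other 7 probes stayed between 37.8 and 72.7 on single arrays. For 4 of the 5 probes above the limit, the mean over all arrays was below 80, so a difference in these has little room above background. Only the brighter Scn4b probe was far above it, with a mean of 811 over the 20 arrays, at the 95th percentile of all probes.

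**Figure D1:**
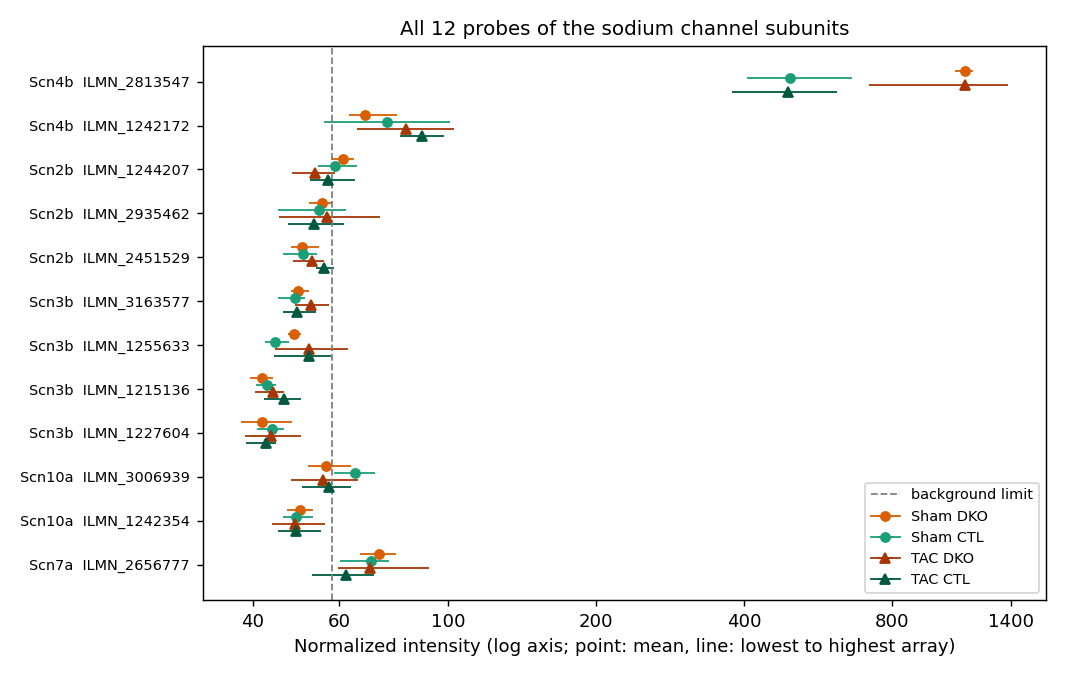
Level of each of the 12 probes in the 4 groups. The horizontal axis is the normalized intensity on a log axis, points are group means, lines run from the lowest to the highest array (n = 4 per sham group and 6 per TAC group), and the dashed line is the background limit of 58.1. The brighter Scn4b probe lies between 378 and 1379, and all other probes lie near or just above the limit.

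Scn4b was higher in DKO hearts than in CTL hearts, by 2.32-fold in sham hearts and 2.28-fold after TAC, on its brighter probe (ILMN_2813547). The 4 Sham DKO arrays had levels of 1167, 1109, 1075 and 1158, against 405, 496, 415 and 664 on the 4 Sham CTL arrays. The 6 TAC DKO arrays had levels of 1046, 1379, 1114, 718, 1173 and 1338, against 455, 617, 420, 378, 507 and 578 on the 6 TAC CTL arrays. No DKO array overlapped with a CTL array, since the lowest of the 10 DKO arrays, TAC DKO replicate 4 with 718, was above the highest of the 10 CTL arrays, Sham CTL replicate 4 with 664. All DKO arrays were above all CTL arrays for 0.0663% of the probes on the array. Those values chose the gene, so nothing is read from the share.

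The mean level of Scn4b was 1127 ± 43.2 in Sham DKO (SD, n = 4) and 495 ± 120 in Sham CTL (SD, n = 4). After TAC it was 1128 ± 238 in TAC DKO (SD, n = 6) and 492 ± 92.7 in TAC CTL (SD, n = 6). The difference of log2 levels between DKO and CTL was 1.22 (SE 0.17) in sham hearts and 1.19 (SE 0.14) after TAC. In order of level, TAC DKO and Sham DKO were followed by Sham CTL and TAC CTL, and the means within each genotype differed by less than the SD of either group. The coefficient of variation was 3.84% among Sham DKO arrays, 24.2% among Sham CTL arrays, 21.1% among TAC DKO arrays and 18.8% among TAC CTL arrays. Without Sham CTL replicates 2 and 4 the sham difference was 1.46, the difference of TAC to sham in CTL hearts 0.24 (limma adjusted p = 0.433) and the interaction -0.27 (limma adjusted p = 0.995).

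The response of Scn4b to TAC did not pass the test in either genotype. In DKO hearts the log2 difference of TAC to sham was -0.03 (95% confidence interval -0.36 to 0.30, limma adjusted p = 0.919). In CTL hearts it was 0.00 (interval -0.33 to 0.33, limma adjusted p = 0.999). The interaction, the DKO response minus the CTL response, was -0.03 (interval -0.50 to 0.44, limma adjusted p = 0.994). These intervals leave room for a change of Scn4b with TAC in either direction. The value in CTL hearts was -0.17 (adjusted p = 0.319) with the deposited intensities and -0.48 (adjusted p = 0.029) with only the medians of the arrays made equal. In DKO hearts equal medians gave -0.51 (adjusted p = 0.0187), and all of these were below the fold limit.

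**Figure D2:**
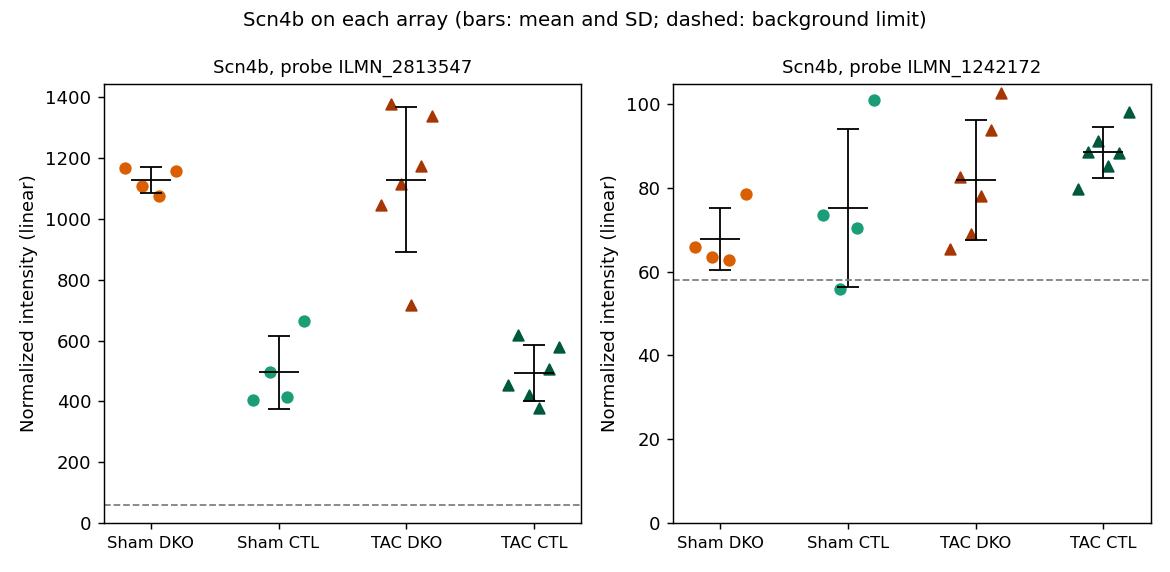
Scn4b on each of the 20 arrays, for its brighter probe (left) and its dimmer probe (right). The vertical axes are normalized intensities on a linear scale from 0, points are arrays, bars are the mean and SD, and the dashed line is the background limit. On the brighter probe every DKO array is at 718 or above and every CTL array at 664 or below, and on the dimmer probe the groups overlap.

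The second Scn4b probe (ILMN_1242172) did not show this difference. Its mean level was 67.7 ± 7.37 in Sham DKO and 75.2 ± 18.8 in Sham CTL (SD, n = 4 each). After TAC it was 81.9 ± 14.3 in TAC DKO and 88.4 ± 6.11 in TAC CTL (SD, n = 6 each). The arrays of DKO and CTL overlapped in sham hearts and after TAC, and the log2 differences were -0.12 (SE 0.14) and -0.13 (SE 0.11). The sham value was -0.25 without Sham CTL replicate 2 and 0.03 without Sham CTL replicate 4, and the value after TAC was -0.20 without TAC DKO replicate 6 and -0.07 without TAC DKO replicate 1. The probes of Scn4b thus disagree, and with their mean taken as the value of the gene, the log2 difference was 0.55 (SE 0.14) in sham hearts and 0.53 (SE 0.11) after TAC, and the gene was not called. Over the 20 arrays the log2 levels of the probes had a correlation of -0.10, and of 0.46 with the group means removed, as a description. The position of either probe in the Scn4b transcripts was not used here. With TAC, the dimmer probe had a log2 difference of 0.26 in DKO hearts (interval -0.00 to 0.53, limma adjusted p = 0.137) and of 0.26 in CTL hearts (interval -0.00 to 0.53, limma adjusted p = 0.155). With the deposited intensities these were 0.41 (adjusted p = 0.00935) and 0.36 (adjusted p = 0.019), and with equal medians 0.11 and 0.06. In CTL hearts the difference was 0.41 (adjusted p = 0.0123) without Sham CTL replicate 4 and 0.13 without Sham CTL replicate 2.

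Scn2b, the gene next to Scn4b, encodes the beta-2 subunit and was close to background. Its 1 probe above the limit (ILMN_1244207) had levels of 61.0, 57.7, 64.2 and 61.2 on Sham DKO arrays, against 56.5, 54.4, 65.3 and 58.8 on Sham CTL arrays. After TAC it had 53.0, 48.0, 50.7, 58.9, 54.8 and 56.7 on TAC DKO arrays, against 57.3, 57.3, 52.6, 52.4, 56.5 and 64.5 on TAC CTL arrays. The genotypes overlapped in sham hearts and after TAC, with log2 differences of 0.06 (SE 0.08) and -0.08 (SE 0.06). In DKO hearts Scn2b was lower after TAC than after sham surgery by a log2 difference of -0.19 (interval -0.33 to -0.04, limma adjusted p = 0.0469), below the fold limit, and it was 0.08 higher with the deposited intensities. In CTL hearts the difference was -0.05 (interval -0.19 to 0.09, limma adjusted p = 0.681), and the interaction was -0.14 (interval -0.34 to 0.07, limma adjusted p = 0.939). Without TAC DKO replicates 2 and 3 the difference in DKO hearts was -0.13 (adjusted p = 0.232).

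Scn3b encodes the beta-3 subunit, which is bound to the alpha subunit without a covalent bond. Its 4 probes were near background in all groups, with group means between 41.8 and 52.6 and single arrays between 37.8 and 62.4. No fold is given for values at this level. One of these probes (ILMN_1255633) had a limma adjusted p of 0.0452 for TAC against sham in CTL hearts, with all 4 group means below the limit.

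Scn10a encodes a tetrodotoxin-resistant alpha subunit best known from pain-sensing neurons, and its probe ILMN_3006939 was just around the background limit. Its mean level was 56.3 ± 4.98 in Sham DKO and 64.4 ± 5.91 in Sham CTL (SD, n = 4 each), and 55.7 ± 7.22 in TAC DKO and 57.1 ± 4.99 in TAC CTL (SD, n = 6 each). The lowest, median and highest arrays were 47.8, 54.4 and 65.5 in TAC DKO, against 50.3, 56.7 and 63.3 in TAC CTL. The arrays of DKO and CTL overlapped in both conditions, and the log2 difference was -0.19 (SE 0.10) in sham hearts and -0.04 (SE 0.08) after TAC. With TAC it was -0.02 in DKO hearts (interval -0.21 to 0.16, limma adjusted p = 0.882) and -0.17 in CTL hearts (interval -0.36 to 0.01, limma adjusted p = 0.189), both above 0 with the deposited intensities, and the interaction was 0.15 (interval -0.11 to 0.42, limma adjusted p = 0.942). The other Scn10a probe was near background in all groups.

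Scn7a encodes Nax, a channel-like alpha subunit that responds to the sodium concentration outside the cell in glia rather than to voltage. Its probe (ILMN_2656777) had levels of 77.7, 67.7, 78.1 and 66.1 on Sham DKO arrays, against 75.8, 68.6, 73.7 and 60.1 on Sham CTL arrays. After TAC it had 91.1, 66.7, 64.9, 68.8, 64.1 and 59.7 on TAC DKO arrays, against 52.9, 66.9, 57.2, 56.7, 70.7 and 66.8 on TAC CTL arrays. The groups overlapped, and TAC DKO replicate 1 stood above all other arrays. The log2 difference of DKO to CTL was 0.06 (SE 0.11) in sham hearts and 0.16 (SE 0.09) after TAC. It was -0.0087 in sham hearts without Sham CTL replicate 4, and 0.08 after TAC without TAC DKO replicate 1. With TAC it was -0.07 in DKO hearts (interval -0.29 to 0.14, limma adjusted p = 0.642), -0.17 in CTL hearts (interval -0.38 to 0.04, limma adjusted p = 0.265) and 0.10 for the interaction (interval -0.20 to 0.40, limma adjusted p = 0.96). With the deposited intensities the first 2 of these were above 0.

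**Figure D3:**
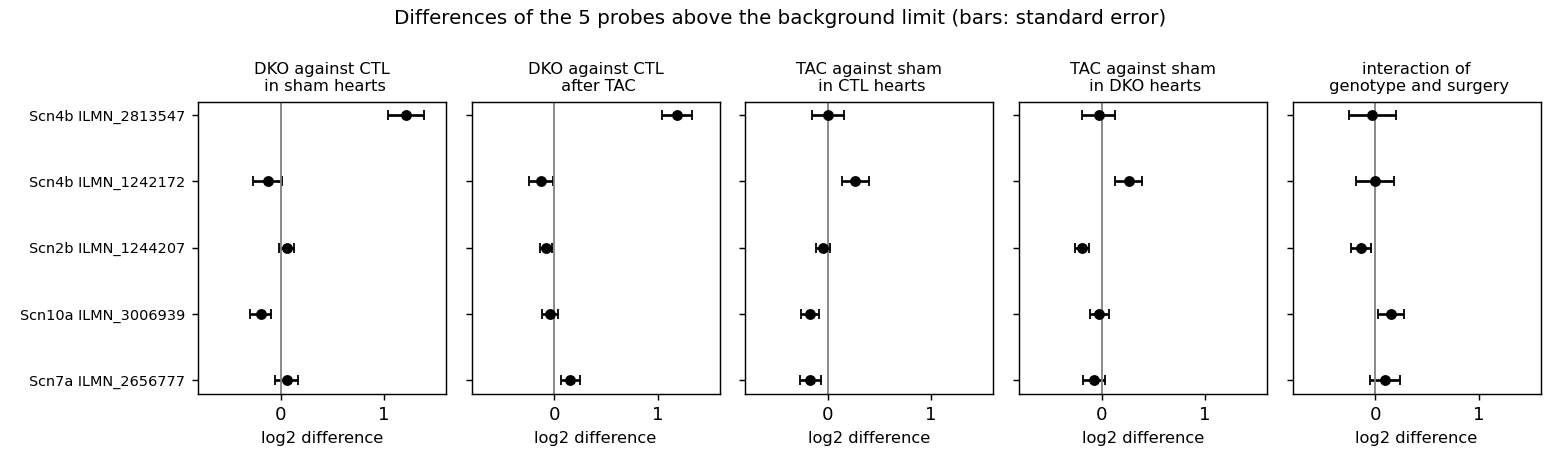
Log2 differences of the 5 probes above the background limit in the 5 comparisons. The horizontal axes are log2 differences (DKO minus CTL, TAC minus sham, and the DKO response minus the CTL response), and bars are standard errors. The brighter Scn4b probe is at 1.22 and 1.19 in the genotype comparisons, and all other points lie between -0.20 and 0.27.

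Counted over all members, 1 of 12 probes, the brighter Scn4b probe, lay past the thresholds of a call, higher in DKO, in sham hearts and again after TAC, and 0 lay past them lower. Of all probes 0.0883% were called higher and 0.0133% lower in sham hearts, and 0.128% higher and 0.0155% lower after TAC. The choice of the genes used these contrasts, so the counts are a description and no test of the members. For TAC against sham 0 of 12 probes were called in DKO hearts, where 6.74% of all probes were called, and 0 of 12 in CTL hearts, where 5.17% were. At an unadjusted p under 0.05 these counts were 1 in DKO hearts and 2 in CTL hearts. For the interaction 0 of 12 were called and 0 had an unadjusted p under 0.05, where 0.00221% of all probes were called. The median log2 difference of the 12 probes was 0.04 for TAC in DKO hearts and 0.00 in CTL hearts, beside 0.02 and 0.01 for all probes.

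Among the other sodium channel subunits, 5 genes were read (Scn1a, Scn2a, Scn3a, Scn8a and Scn11a), and Scn9a was not analysed here. These 5 genes had 12 probes between 37.7 and 83.7 on single arrays, of which 3 were above the limit in a group and 0 were called in any comparison. Of all probes 6.74% or fewer were called with TAC, and 0.128% or fewer in each direction between genotypes. Scn3a, an alpha subunit of embryonic brain, differed with TAC in a way that depended on the scaling. Its brightest probe averaged 68.4 in TAC DKO against 58.8 in Sham DKO, and 69.5 in TAC CTL against 57.3 in Sham CTL. The log2 differences were 0.22 (limma adjusted p = 0.0504) in DKO hearts and 0.27 (limma adjusted p = 0.0203) in CTL hearts, below the fold limit. They were 0.45 and 0.50 with the deposited intensities (limma adjusted p = 3.32e-05 and 1.17e-05), and 0.14 and 0.20 with equal medians (limma adjusted p = 0.172 and 0.0608).

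Proteins that bind the channel or set its place in the membrane were described by a list of 20 genes, of which 19 had a probe and 12 were above the limit. By the brightest probe of each gene, 0 were called between genotypes in sham hearts (2 with an unadjusted p under 0.05) and 0 after TAC (4 with an unadjusted p under 0.05). The shares of all probes called were 0.0883% higher and 0.0133% lower in sham hearts, and 0.128% and 0.0155% after TAC. With TAC, 4 of the 19 were called in DKO hearts, where 6.74% of all probes were. In CTL hearts 1 of the 19 was called, where 5.17% were. The 19 are the brightest probe of each gene, whereas the shares cover all probes, dim ones included. The counts and shares are therefore not alike, and no excess of calls was tested. Ank3, encoding ankyrin-G, which anchors sodium channels to the membrane skeleton, averaged 989 in TAC DKO against 442 in Sham DKO, and 970 in TAC CTL against 511 in Sham CTL. Ank3 rose by a log2 difference of 1.16 in DKO hearts (SE 0.09, limma adjusted p = 1.55e-09) and 0.93 in CTL hearts (SE 0.09, limma adjusted p = 5.71e-08). Its interaction of 0.23 did not pass the test (limma adjusted p = 0.939).

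The 3 other partners were called in DKO hearts and not in CTL hearts, with the same direction in both and no interaction past the test. Cask, a scaffold kinase, averaged 325 in TAC DKO against 201 in Sham DKO, and 292 in TAC CTL against 196 in Sham CTL, with log2 differences of 0.69 (limma adjusted p = 1.29e-07) and 0.57 (limma adjusted p = 2.66e-06). Rangrf, encoding MOG1, which helps sodium channels to reach the membrane, averaged 1644 in TAC DKO against 1080 in Sham DKO, and 1507 in TAC CTL against 1135 in Sham CTL, with log2 differences of 0.60 (limma adjusted p = 6.08e-06) and 0.41 (limma adjusted p = 0.000789). Slmap, a protein of the sarcolemma, was lower after TAC, with 1503 in TAC DKO against 2512 in Sham DKO, and 1680 in TAC CTL against 2201 in Sham CTL, with log2 differences of -0.75 (limma adjusted p = 1.04e-06) and -0.39 (limma adjusted p = 0.00244). With equal array medians Ank3 was at 0.68 and Slmap at -1.22 in DKO hearts, both called, whereas Cask was at 0.23 and Rangrf at 0.13, not called, and in CTL hearts Ank3 was at 0.45, not called, Slmap was at -0.86 and was called (limma adjusted p = 7.31e-08), and Rangrf turned to -0.066. With the deposited intensities Cask was at 0.53 and Rangrf at 0.43 in DKO hearts, neither called. The limma adjusted p of the interaction was 0.942 for Cask, and 0.939 for Rangrf and for Slmap. The median log2 difference of the 19 genes was 0.12 in DKO hearts and 0.03 in CTL hearts, beside 0.04 and 0.03 for all genes.

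Markers of atrial muscle and of the conduction system, where sodium channel genes are also expressed, were read on the same arrays. Of 8 atrial markers 7 had a probe, 6 of them above the limit in a group. Their summed level ranged from 945 to 2091 in Sham DKO against 597 to 694 in Sham CTL, and from 834 to 7154 in TAC DKO against 607 to 1378 in TAC CTL. The sham groups did not overlap. The list was chosen with earlier results of these data known, so the sum is a description and no independent reading of atrial tissue. Most of the sham gap came from Mybphl, a myosin-binding protein of atrial muscle, and from Stard10. Mybphl averaged 608 in Sham DKO and 60.9 in Sham CTL, and 396 in TAC DKO and 62.1 in TAC CTL, and was not called (limma adjusted p = 0.0819 in sham hearts and 0.10 after TAC). Stard10 was called higher in DKO in sham hearts and after TAC, with means of 470 in Sham DKO and 216 in Sham CTL, and 249 in TAC DKO and 130 in TAC CTL. In sham hearts the log2 differences of Myl7, Sln, Bmp10 and Nr2f2 lay between -0.11 and 0.07. Myl4 was at 0.45, and the median of the list was 0.07. After TAC the median was 0.91, with Myl4 at 1.42 and Sln at 1.24, neither called. Myl7 was then at 0.17, Nr2f2 at 0.11 and Bmp10 at 0.002. After TAC 5 of the 7 genes had an unadjusted limma p under 0.05. The sum of the 5 genes other than Mybphl and Stard10 was 389 to 443 in Sham DKO against 327 to 382 in Sham CTL, and 563 to 6366 in TAC DKO against 403 to 1181 in TAC CTL. Bmp10 was near background in all groups. Myl7 and Sln were near background in all but TAC DKO, at 68.8 and 294.

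The atrial sum was highest on TAC DKO replicates 3 and 2, with 7154 and 3799, where the brighter Scn4b probe had 1114 and 1379. Among the other 4 TAC DKO arrays, with atrial sums from 834 to 1182, Scn4b had 718 to 1338. Without replicates 2 and 3 the log2 difference of Scn4b after TAC was 1.10. TAC CTL replicate 4 had an atrial sum of 1378 and a Scn4b level of 378. On the other TAC CTL arrays the atrial sums were 607 to 687 and the Scn4b levels 420 to 617. No relation between the atrial sum and Scn4b was tested. Of 9 conduction system markers 8 had a probe and 5 were above the limit, and their sum ranged from 1875 to 2460 in Sham DKO against 1416 to 1768 in Sham CTL, and from 1852 to 3052 in TAC DKO against 1320 to 1844 in TAC CTL. The largest part of this sum was Irx3, a transcription factor of the ventricular conduction system. It averaged 1487 in Sham DKO and 914 in Sham CTL, and 1814 in TAC DKO and 985 in TAC CTL. Irx3 was called higher in DKO after TAC (limma adjusted p = 0.0172) and not in sham hearts (limma adjusted p = 0.458). Hcn4, Pcp4 and Cpne5 were near background in all groups. Of the other members above the limit, Gja5, Tbx3 and Cntn2 did not share the direction of Irx3, and Etv1 did. The log2 differences of DKO to CTL in sham hearts and after TAC were -0.46 and -0.06 for Gja5, -0.27 and -0.41 for Tbx3, -0.32 and -0.13 for Cntn2, and 0.27 and 0.10 for Etv1, and none of these was called. Without Irx3 the sum of the other 7 genes overlapped between genotypes, at 579 to 697 in Sham DKO against 638 to 828 in Sham CTL, and 572 to 700 in TAC DKO against 597 to 705 in TAC CTL. The part of such cells in the Scn4b difference was not tested.

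**Figure D4:**
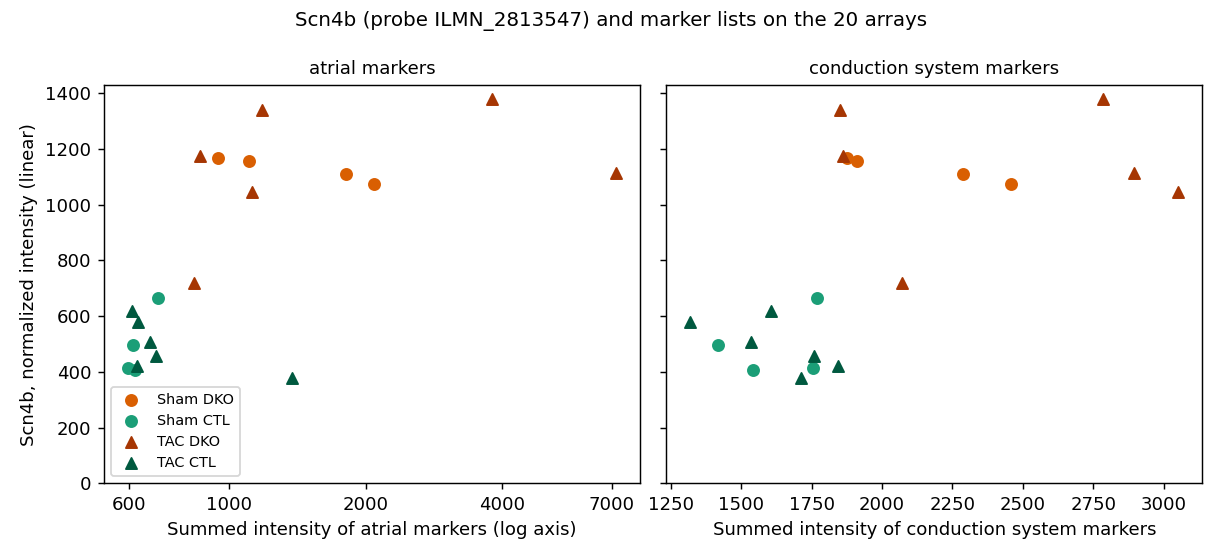
Scn4b beside atrial markers (left, log axis) and conduction system markers (right) on the 20 arrays. The horizontal axes are summed normalized intensities of the markers, the vertical axis is the normalized intensity of the brighter Scn4b probe, and each point is 1 array. DKO arrays have Scn4b levels from 718 to 1379 and atrial sums from 834 to 7154. CTL arrays have Scn4b levels from 378 to 664 and atrial sums from 597 to 1378.

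Markers of neurons and glia were read beside Scn10a and Scn7a, which are expressed in such cells. Of 11 neuron markers with a probe, 3 were above the limit in a group, and their sum ranged from 622 to 640 in Sham DKO against 635 to 724 in Sham CTL, and from 690 to 762 in TAC DKO against 703 to 776 in TAC CTL. Of 8 glia markers with a probe, 5 were above the limit in a group, and their sum ranged from 487 to 548 in Sham DKO against 475 to 512 in Sham CTL, and from 496 to 546 in TAC DKO against 483 to 521 in TAC CTL. In both lists 0 genes were called between genotypes, where 0.128% of all probes or fewer were called in each direction.

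The genes around Scn4b on chromosome 9 were read to see how far the genotype difference extended along the chromosome. Of the 10 protein-coding genes on each side, 18 of 20 had a probe, 13 were above the limit, and 0 were called between genotypes in sham hearts or after TAC. Beside this, 0.0883% of all probes were called higher and 0.0133% lower in sham hearts, and 0.128% higher and 0.0155% lower after TAC. At such shares a count of 0 says little about the neighbours. The log2 differences of DKO to CTL of these 13 ranged from -0.28 to 0.44 in sham hearts and from -0.11 to 0.39 after TAC, against 1.22 and 1.19 for Scn4b. The highest was Fxyd6, a regulator of the sodium pump, with means of 2335 in Sham DKO and 1716 in Sham CTL, and 3257 in TAC DKO and 2594 in TAC CTL, and limma adjusted p of 0.856 and 0.435. Scn2b and Tmprss4, directly beside Scn4b, were at 0.06 and -0.09 in sham hearts.

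**Figure D5:**
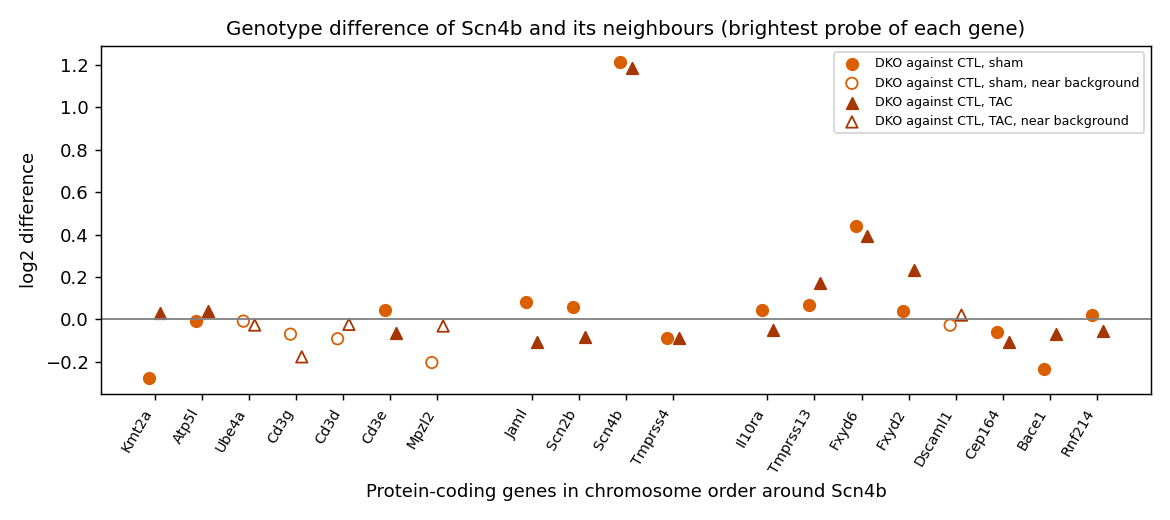
Genotype difference of Scn4b and its neighbours in chromosome order. The vertical axis is the log2 difference of DKO to CTL in sham hearts (circles) and after TAC (triangles) for the brightest probe of each gene, and open symbols are near background. Scn4b is at 1.22 and 1.19, and the neighbours above background lie between -0.28 and 0.44.

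The genes most like Scn4b in their levels were ranked over 18044 probes of other genes that were above the limit, by the correlation of log2 levels with the brighter Scn4b probe over the 20 arrays. The highest were Tnnt1 with 0.95, Pigh with 0.90, Ppp1r1b with 0.89, Aldh1l1 with 0.89 and Arpp21 with 0.88. The arrays fall into the 2 genotypes, so that any gene higher in DKO hearts ranks high. Tnnt1, encoding the troponin T of slow skeletal muscle, averaged 1416 in Sham DKO and 588 in Sham CTL, and 1734 in TAC DKO and 560 in TAC CTL. With the group means removed, the highest were other genes, Gpt2 with 0.89, Gzmm with 0.87, Map3k5 with 0.86, Mgmt with 0.86 and Cryba4 with 0.84, whereas Tnnt1 had 0.68 and Aldh1l1 had -0.16. TAC DKO replicate 4, where Scn4b was lowest in its group, was read for the 24 other probes called higher in DKO in both comparisons. It was the lowest TAC DKO array for 9 of them. Replicates 1, 2, 3, 5 and 6 were the lowest for 1, 5, 4, 4 and 1. These probes were picked by their genotype difference on these arrays, and the share over all probes was not taken. The counts are therefore a description.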

How the data were processed

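The authors processed the bead chips with GenomeStudio V2010.3 and deposited linear intensities for 45281 probes (background correction not stated). Sorted deposited values were equal within 0.2% for at least 98.5% of probes among sham arrays and 99.9% among TAC arrays, against 0.413% between them, so each set had been quantile normalized apart. The number of arrays limits the precision.

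Intensities were log2 transformed with no constant added and quantile normalized over the 20 arrays. limma 3.58.1 in R 4.3.3 fitted 1 mean per group, on 16 residual and 6.64 prior degrees of freedom, with p-values Benjamini-Hochberg adjusted over all probes. Groups came from the sample labels. Symbols were updated through gene identifiers for 34807 probes, and 34885 probes named 1 gene, 18 several and 10378 none. The script was tested on simulated data. Nothing in the labels gives litters or array slides, so a slide could not be used as a block.

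The members and lists were chosen with earlier results of these data known. Every member gene was named, though not every member probe by its identifier. Of the other lists, subunit genes with a probe, called channel partners and some markers were named. Not every called gene of the marker lists was named. Alternatives covered scaling, an added constant, the filter, thresholds, array weights, the replicate number as a block, probe means per gene and leaving out arrays.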

Additional observations from a re-analysis of the deposited data

Results flagged for a closer look

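In Scn7a, TAC DKO replicate 1 stood far above the other arrays of its group on probe ILMN_2656777, with a level of 91.1, whereas the other 5 arrays ranged from 59.7 to 68.8. Its gap to the next array was 0.711 of the range of the group, above Dixon's 95% critical value for 6 arrays. This was 1 of 48 groups of member probes examined, and chance flags about 1 in 20.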

How the results depend on the processing

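In the genotype comparisons, which chose the gene, the number of members past the thresholds is a description. It was 1, the brighter Scn4b probe, under each alternative run except the mean of the probes of each gene, where it was 0 in sham hearts and 0 after TAC. Its log2 difference ranged from 1.13 to 1.46 in sham hearts and from 1.10 to 1.31 after TAC, arrays left out included; leaving out TAC DKO replicates 2 and 3, or Sham CTL replicates 2 and 4, was chosen after seeing the data. With no fold limit, 1 probe passed for TAC in CTL hearts (Scn3b, near background) and 1 in DKO hearts (Scn2b).

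Directions of TAC differences in members depended on the scaling. With the deposited intensities they were 0.22 for Scn2b (adjusted p = 0.0064), 0.022 for Scn7a, 0.064 for Scn10a and -0.17 for the brighter Scn4b probe in CTL hearts, and 0.080 for Scn2b, 0.083 for Scn7a and 0.26 for Scn10a (adjusted p = 0.0116) in DKO hearts. With equal medians the brighter Scn4b probe was at -0.48 in CTL hearts. The interaction of the dimmer Scn4b probe was 0.045 with the deposited intensities, 0.045 with equal medians, 0.0009 with 16 added and 0.048 without TAC DKO replicates 2 and 3. The cause was not tested. In CTL hearts Scn7a was at -0.28 with equal medians (adjusted p = 0.039). With 1 array left out, the brighter Scn4b probe ranged from -0.087 to 0.15 for TAC in CTL hearts, from -0.093 to 0.095 in DKO hearts and from -0.18 to 0.095 for the interaction, the dimmer probe from -0.15 to 0.13 for the interaction, Scn2b from -0.087 to 0.0027 in CTL hearts and Scn10a from -0.073 to 0.034 in DKO hearts.

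Of 26 same-numbered pairs of arrays from different groups, 8 had a correlation over 0.1 (range -0.24 to 0.49). Both ends of this range were DKO and CTL pairs after TAC, number 3 at -0.24 and number 6 at 0.49. In sham hearts the DKO and CTL pair with number 1 had 0.32. Arrays with different numbers were not compared, so whether the numbers pair the arrays was not tested. With the number as a replicate block, 1 member probe lay past the thresholds in each genotype comparison and 0 in the others, and the brighter Scn4b probe was at -0.085 for TAC in CTL hearts (adjusted p = 0.744) and Scn10a at -0.26 (adjusted p = 0.0188).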
